A study of Mus musculus with 284 samples.

Results

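Malat1, Neat1, Gas5, Snhg1, Snhg8, Snhg12 and Kcnq1ot1 are 7 long non-coding RNAs of 54247 gene IDs measured in single tumour propagating cells of mouse skin tumours. Malat1, Neat1 and Kcnq1ot1 act in the nucleus, and Gas5, Snhg1, Snhg8 and Snhg12 carry small nucleolar RNAs (snoRNAs) in their introns. They were chosen by name, with their shares of cells and levels per mouse and genotype, and their relation to genes detected, mitochondrial share and glycolytic enzymes, already known from these data. Those values are therefore given as a description, and no p-value or call is given for any of the 7. All 7 were found, each by 1 gene ID of the GENCODE M21 annotation of GRCm38; in every mouse, more than 20% of cells had a count for each.

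The study sorted single cells from tumours raised in mice with the carcinogen DMBA, given once at 8 weeks of age, and the tumour promoter TPA, given for more than 20 weeks. The mice KO1 (73 cells) and KO3 (54 cells) are labelled Sirt6-/-, and the mice WT1 (69 cells) and WT2 (88 cells) are labelled wild type. In all of them a Keratin14-Cre transgene, active in basal keratinocytes, switched on a YFP reporter in the ROSA26 locus, and cells positive for YFP were sorted on CD34 and CD49f. All mice are labelled C57BL/6. The labels do not say which Sirt6 allele the mice carried or how many tumours each gave. Each library is 1 cell, so the mouse was the replicate, with 2 per genotype, and since the genotypes never shared a plate, effects of plate and genotype cannot be told apart.

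Sirt6, the deacetylase gene named in the labels, had 27 CPM in KO1 and 14.5 CPM in KO3, against 16.7 CPM in WT1 and 25.2 CPM in WT2 (CPM are counts scaled to the same total in every library, here summed over the cells of a mouse). Mice labelled Sirt6-/- are therefore called by their label throughout. A cell had 523999 to 1684464 counts in total. Median genes detected after thinning each cell to 500000 counts were 6020 in KO1 and 6165 in KO3, against 6533 in WT1 and 5504.5 in WT2. All 284 cells had counts for 2 or more of the markers Krt14, Krt5, Trp63, Itga6 and Cd34, while 7 cells had 2 or more immune markers, 1 cell had 2 or more endothelial markers and no cell had that many fibroblast or melanocyte markers.

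Malat1 RNA sits in nuclear speckles, the bodies where splicing factors gather, and Neat1 RNA is the scaffold of paraspeckles, nuclear bodies that grow when cells are stressed. Kcnq1ot1 is transcribed from the paternal chromosome in mice and silences neighbouring genes of the imprinted Kcnq1 domain in cis. Gas5, named for its rise in growth-arrested cells, and the Snhg genes are host genes: their spliced RNAs are short-lived once ribosomes reach them, because nonsense-mediated decay removes them, and their introns release snoRNAs that guide the modification of ribosomal RNA. Many host genes begin with the pyrimidine tract that also opens the mRNAs of ribosomal proteins, the TOP motif, through which translation answers to growth signals.

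The RNAs differ in the sequences at their starts and ends. The transcription starts of 3 host genes are shown because they hold a run of C followed by at least 4 bases that are C or T, beginning within 5 bases of the annotated start on the transcribed strand. The run stands in capitals in the last 100 bases of each RefSeq promoter window (GRCm38.p6, 50 bases before the start to 50 after it).
Gas5, chr1:161035116-161035215, plus strand: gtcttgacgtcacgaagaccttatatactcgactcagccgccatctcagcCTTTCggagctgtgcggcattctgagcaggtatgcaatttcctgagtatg
Snhg8, chr3:123508287-123508386, minus strand: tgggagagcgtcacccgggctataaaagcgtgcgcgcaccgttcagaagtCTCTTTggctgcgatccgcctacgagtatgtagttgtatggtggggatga
Snhg12, chr4:132308628-132308727, plus strand: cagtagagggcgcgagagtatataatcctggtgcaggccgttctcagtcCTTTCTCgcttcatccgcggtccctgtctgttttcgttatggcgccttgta
Such a run lay at the start of 18.3% of all 32851 windows. Counted by gene over all its listed starts, 28 of 56 cytosolic ribosomal protein genes and 5 of 14 other snoRNA host genes held it, against 21.2% of 27025 genes. These letters were not found at the listed starts of Snhg1, Malat1 and Kcnq1ot1, nor at a further listed start of Gas5. Neat1 had no entry.

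Malat1 and Neat1 are neighbours on chromosome 19 (chr19:5795690-5802672 and chr19:5824708-5845478, GRCm38, both on the minus strand, 22035 bases apart). Their 3′ end elements are shown because the long forms of both RNAs are known to end not with a poly(A) tail added after cleavage but with a triple helix between U-rich and A-rich stretches. Capitals mark runs of 4 or more T or A, together with the elements TTTTGCTT and AAAAGCAA.
Malat1, chr19:5795980-5796072: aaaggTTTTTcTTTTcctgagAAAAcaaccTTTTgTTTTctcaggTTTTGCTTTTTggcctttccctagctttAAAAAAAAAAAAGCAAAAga
Neat1, chr19:5824708-5824805: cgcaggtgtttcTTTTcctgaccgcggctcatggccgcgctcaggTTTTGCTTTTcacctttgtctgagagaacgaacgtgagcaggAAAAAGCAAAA
TTTTGCTT followed within 100 bases by AAAAGCAA was searched on the sense strand of the longest annotated transcript of each of the 7 RNAs and was found in these 2 alone. In the annotated Malat1 transcript the A-rich element is followed by 294 further bases, so the stretch shown is not its annotated end, while in Neat1 2 bases follow. Of all 141767 annotated transcripts, 47 hold the pair (0.0332%). The libraries were primed on poly(A), per the labels, so what is counted here is RNA with a poly(A) stretch. The longest run of A was 12 bases in the longest Malat1 transcript, 7 in that of Neat1 and 41 in the unspliced 93092-base Kcnq1ot1. The gene counts do not separate the short and long forms of Neat1.

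The host genes differ in what they carry. The annotation places 10 snoRNA gene IDs within Gas5 (chr1:161034422-161038539, plus strand), 8 in Snhg1 (chr19:8723475-8726443, plus strand), 5 in Snhg12 (chr4:132308623-132311024, plus strand) and 1 in Snhg8 (chr3:123507552-123508404, minus strand). One snoRNA is shown for each of 3 hosts, the one with the most counts, with box C (ATGATGA or GTGATGA in the first 20 bases) and box D (CTGA in the last 15) in capitals where present (GRCm38).
Gm22357 in Gas5, chr1:161036057-161036139, plus strand: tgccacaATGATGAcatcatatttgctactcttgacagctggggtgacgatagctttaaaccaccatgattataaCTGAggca
Gm24452 in Snhg1, chr19:8724531-8724602, plus strand: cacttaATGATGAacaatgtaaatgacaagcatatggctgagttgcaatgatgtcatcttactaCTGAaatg
Snora24 in Snhg8, chr3:123507937-123508066, minus strand: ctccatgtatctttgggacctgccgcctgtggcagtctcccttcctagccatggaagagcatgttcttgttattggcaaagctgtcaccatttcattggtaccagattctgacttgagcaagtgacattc
Both boxes were found in 8 of the 10 snoRNA IDs of Gas5, 4 of 8 in Snhg1, 1 of 5 in Snhg12 and 0 of 1 in Snhg8. Of 1507 annotated snoRNA transcripts, 19.8% held both. Box D was found in all 10 of Gas5 and all 8 of Snhg1, so the misses there were of the exact box C letters. Snord80 in Gas5 and Snora16a in Snhg12 each stand under more than 1 overlapping ID. Snora24 is a box H/ACA snoRNA, a class that lacks boxes C and D. The snoRNAs themselves, which have no poly(A) tail, summed to 117 counts in Gas5, 19 in Snhg1 and 25 in Snhg8 over all 284 cells, while the host genes Gas5, Snhg1 and Snhg8 held 51615, 8112 and 5594 counts in the same order. The host transcripts, not the snoRNAs, are what the values describe. The 5 snoRNA IDs of Snhg12 were not among the counted gene IDs, so they have no counts to give.

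Neat1 drew the most counts of the 7 RNAs. It had 1635 in KO1 and 1596 CPM in KO3, against 1599 in WT1 and 3077 CPM in WT2. WT2 stood apart from the other 3 mice, whose values lay close together. Malat1 had 425 in KO1 and 222 CPM in KO3, against 366 in WT1 and 1072 CPM in WT2; WT2 was again highest, and KO3 lowest. Levels of different genes can be set side by side per kilobase of annotated exon, but their order then depends on the annotated lengths. Neat1 had 78.7 in KO1 and 76.8 CPM per kilobase in KO3, against 77 in WT1 and 148 CPM per kilobase in WT2. Malat1 had 60.9 in KO1 and 31.8 CPM per kilobase in KO3, against 52.4 in WT1 and 153 CPM per kilobase in WT2. On this scale Neat1 was the higher of the pair in KO1, KO3 and WT1, and the values were close in WT2. Neat1 is divided here by the 20771 bases of its long form, and counts of its short form would give it a higher value per kilobase. A count of Malat1 was found in all 284 cells. Neat1 had no count in 3 cells of WT1 and 2 cells of WT2, while single cells reached 8290 CPM in KO3 and 10258 CPM in WT1.

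Gas5 was present in every cell. It had 174 in KO1 and 138 CPM in KO3, against 109 in WT1 and 214 CPM in WT2, and its lowest cell had 32.6 CPM. Its order over mice, with WT2 highest and WT1 lowest, put both mice labelled Sirt6-/- between the wild-type mice. Among genes within 2-fold of its mean, the percentile of its coefficient of variation over cells lay between 3.38 and 29.3 in the 4 mice. The same percentile lay between 76.5 and 90.7 for Malat1 and between 80.7 and 92.5 for Neat1, so both nuclear RNAs varied more from cell to cell than most genes of like level.

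Snhg1 had 30.9 in KO1 and 26.3 CPM in KO3, against 20.7 in WT1 and 24.2 CPM in WT2. The share of its cells with a count was 90.4% in KO1 and 92.6% in KO3, against 91.3% in WT1 and 73.9% in WT2. The mice labelled Sirt6-/- were above both wild-type mice in CPM, and the share of cells was lowest in WT2. Snhg8 had 19.5 in KO1 and 17.5 CPM in KO3, against 14.9 in WT1 and 18.2 CPM in WT2. The share of its cells with a count was 90.4% in KO1 and 96.3% in KO3, against 94.2% in WT1 and 87.5% in WT2, and its groups overlapped on both measures. Snhg12 had 8.15 in KO1 and 5.11 CPM in KO3, against 5.69 in WT1 and 6.2 CPM in WT2. The share of its cells with a count was 68.5% in KO1 and 59.3% in KO3, against 52.2% in WT1 and 55.7% in WT2. Its CPM overlapped between the groups, while its share of cells did not. The percentile of the coefficient of variation among genes of like mean lay between 2.97 and 9.09 for Snhg1, between 3.29 and 7.94 for Snhg8 and between 19.5 and 35.7 for Snhg12 in the 4 mice. Their counts were thus spread over the cells more evenly than those of most genes of like level. Per kilobase, Snhg8 had 22.9 in KO1 and 20.5 CPM per kilobase in KO3, against 17.5 in WT1 and 21.3 CPM per kilobase in WT2. Snhg1 was lower in every mouse (10.4 in KO1 and 8.85 CPM per kilobase in KO3, against 6.98 in WT1 and 8.16 CPM per kilobase in WT2). In CPM without this division, Snhg1 was the higher in every mouse. The exons of all annotated transcripts together cover the whole gene in both, 2969 bases in Snhg1 and 853 in Snhg8. The order per kilobase therefore rests on these lengths, and the length of the RNA counted is not known.

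Kcnq1ot1 (chr7:143203458-143296549, minus strand) had the widest gap between the genotypes of the 7 RNAs. It had 134 in KO1 and 139 CPM in KO3, against 32.8 in WT1 and 56.4 CPM in WT2. The share of its cells with a count was 89% in KO1 and 90.7% in KO3, against 52.2% in WT1 and 67% in WT2. The exact 95% binomial intervals of these shares were 79.5 to 95.1% in KO1 and 79.7 to 96.9% in KO3, against 39.8 to 64.4% in WT1 and 56.2 to 76.7% in WT2. Both mice labelled Sirt6-/- were above both wild-type mice, a contrast known when the RNA was chosen. How many of all genes have shares of cells in such an order was not counted. After thinning to 500000 counts per cell the shares were 87.7% in KO1 and 88.9% in KO3, against 49.3% in WT1 and 65.9% in WT2. The intervals cover counting error over the cells of 1 mouse only, so they do not compare the genotypes. The median cell held 70.7 in KO1 and 99.4 CPM in KO3, against 1.24 in WT1 and 12.8 CPM in WT2. Among cells with a count, the mean was 144 in KO1 and 149 CPM in KO3, against 64.6 in WT1 and 83.5 CPM in WT2, so the level in cells with a count was also higher in both mice labelled Sirt6-/-. Its coefficient of variation stood between the percentiles 63.6 and 76.6 among genes of like mean. Of all Kcnq1ot1 counts of a mouse, the tenth of cells with the highest values held 38.4% in KO1 and 31.2% in KO3, against 52% in WT1 and 50.4% in WT2.

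**Figure D1:**
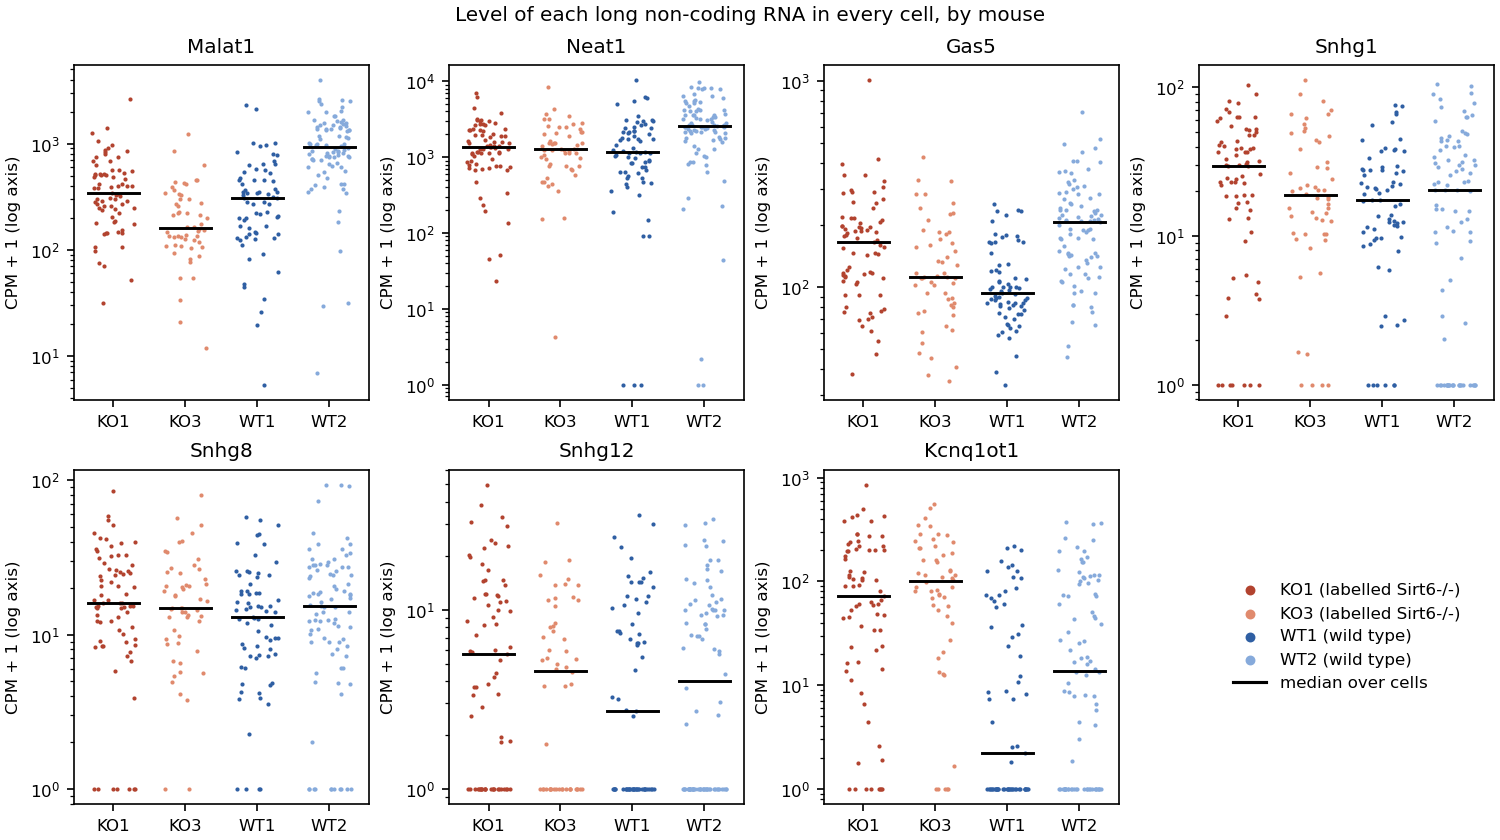
Level of each of the 7 RNAs in every cell, as CPM + 1 on a log axis. Each point is 1 cell of the mice KO1 and KO3 (labelled Sirt6-/-) or WT1 and WT2 (wild type), and black lines are medians; Malat1 and Neat1 are highest in WT2, and Kcnq1ot1 has the most cells at 0 (CPM + 1 of 1) in WT1.

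**Figure D2:**
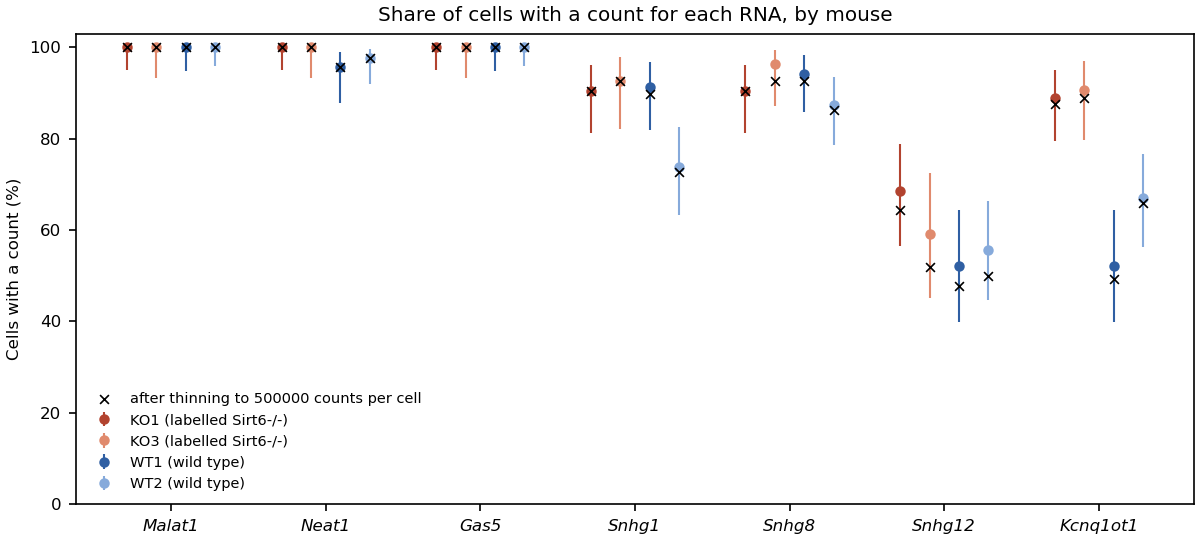
Share of cells with a count for each RNA, as percent, in the mice KO1 and KO3 (labelled Sirt6-/-) and WT1 and WT2 (wild type). Bars are exact 95% binomial intervals over the cells of a mouse and crosses are the shares after thinning every cell to 500000 counts; the Kcnq1ot1 shares of 89% in KO1 and 90.7% in KO3 lie above 52.2% in WT1 and 67% in WT2.

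The few cells of KO1 and WT2 that lay on a plate shared with another mouse allow the plates to be compared. On plate 3, the 7 cells of WT2 had 127 CPM of Kcnq1ot1 and 6 of them had a count, against 50.0 CPM and 65.4% of the 81 cells of WT2 on plate 4. The 69 cells of WT1 on plate 3 had 32.8 CPM. So on plate 3 the 2 wild-type mice differed, and the 7 cells of WT2 lay at the level of the mice labelled Sirt6-/-. The 8 cells of KO1 on plate 2 had 207 CPM, against 125 CPM in its 65 cells on plate 1. For Malat1, the plates of WT2 were close: WT2 had 997 CPM on plate 3 and 1078 CPM on plate 4, while WT1 had 366 CPM on plate 3. Others were not close: Neat1 in KO1 had 2745 CPM in the 8 cells on plate 2 and 1492 CPM on plate 1, and Snhg12 in WT2 had 12 CPM in the 7 cells on plate 3 and 5.67 CPM on plate 4.

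Cells that held all 7 RNAs made up 57.5% of KO1 and 50% of KO3, against 30.4% of WT1 and 27.3% of WT2. Such a cell needs a count of the sparsest RNAs too. Kcnq1ot1 was found in 89% of the cells of KO1 and 90.7% of KO3, against 52.2% of WT1 and 67% of WT2. Snhg12 was found in 68.5% of KO1 and 59.3% of KO3, against 52.2% of WT1 and 55.7% of WT2. The share with all 7 in part restates these shares and is no separate difference between the genotypes. No cell held fewer than 3 of them.

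Between the genotypes, counts were summed over the cells of each mouse and fitted with edgeR's quasi-likelihood test over all genes. Of 16567 genes, 0 passed an adjusted p of 0.05 (0% called), 848 had an unadjusted p under 0.05, and limma-voom also called 0. DESeq2 on the same sums called 149 (0.899%). Of all genes tested, 17% were above in both mice labelled Sirt6-/- relative to both wild-type mice, in TMM-scaled CPM, and 18.7% were below. Of the 7 RNAs, 2 lay above (Kcnq1ot1 and Snhg1), 0 below, and 5 overlapped; since the RNAs were chosen with this contrast known, nothing is read from these counts. These p-values measure only the spread between the 4 mice.

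The log2 difference, labelled Sirt6-/- minus wild type, was 1.57 (SE 0.355) for Kcnq1ot1, and between 1.20 and 2.07 with each mouse left out in turn. From the mean log2(CPM + 1) over cells it was 2.67, and that of Snhg1 was 0.55. For Malat1 it was -1.22 (SE 0.647), which rested on WT2: without WT2 it was -0.17. Neat1 had -0.58 (SE 0.383), and 0.026 without WT2. WT2, the mouse with the most Malat1 and Neat1, was also highest in the 19 immediate early genes, which cells switch on within minutes of stress or growth signals. Their summed level was 12906 CPM in KO1 and 11825 CPM in KO3, against 12924 CPM in WT1 and 27388 CPM in WT2. Their part in the levels of Malat1 and Neat1 was not tested. Gas5 had -0.11 (SE 0.409), Snhg1 0.31 (SE 0.277), Snhg8 0.12 (SE 0.312) and Snhg12 0.12 (SE 0.521). The median over all genes tested was -0.0082.

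Keratinocyte markers lay on different sides in the same comparison, and none passed the edgeR test. Of 14 basal keratinocyte genes, 0 had a positive difference and 10 lay below, against 18.7% of all genes below, with summed levels of 31199 CPM in KO1 and 34643 CPM in KO3, against 37398 CPM in WT1 and 47404 CPM in WT2. Of 14 suprabasal genes, which mark differentiating keratinocytes, 11 had a positive difference and 7 lay above, against 17% of all genes above. DESeq2 called 2 of these 14 and 0 of the 14 basal genes, against 0.899% of all genes. The summed levels of the suprabasal genes were 3070 CPM in KO1 and 4700 CPM in KO3, against 2003 CPM in WT1 and 3384 CPM in WT2, which overlapped. Of the 5 markers the cells were sorted or known by, 0 had a positive difference. The part of these markers in the values of the 7 RNAs was not tested.

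Of 13 other snoRNA host genes that passed the filter on low counts, 11 had a positive log2 difference, with a median of 0.52, 7 lay above and 0 below, and 0 passed the edgeR test. Of all 16567 genes, 8175 had a positive difference, 17% lay above and 18.7% below. Snhg6 had 45 in KO1 and 40.8 TMM-scaled CPM in KO3, against 20.3 in WT1 and 28.2 TMM-scaled CPM in WT2. Snhg5 had 34.5 in KO1 and 55.2 TMM-scaled CPM in KO3, against 26.4 in WT1 and 25.1 TMM-scaled CPM in WT2. Dancr had 13.1 in KO1 and 16.5 TMM-scaled CPM in KO3, against 8.99 in WT1 and 7.84 TMM-scaled CPM in WT2. In all 3 genes both mice labelled Sirt6-/- were above both wild-type mice, while Zfas1, with 29.8 in KO1 and 23.1 TMM-scaled CPM in KO3, against 18.8 in WT1 and 29.1 TMM-scaled CPM in WT2, overlapped. Of the rest found in 20% or more of the cells of each mouse, Snhg15, Snhg17, Epb41l4aos and Snhg9 lay above, with log2 differences of 0.37, 0.58, 0.51 and 1.08, and Snhg20 overlapped, with 0.52. The difference of Snhg9 is uncertain (SE 0.946), because its level was very low. It had 0.478 in KO1 and 0.453 TMM-scaled CPM in KO3, against 0.178 in WT1 and 0.26 TMM-scaled CPM in WT2.

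Of 13 genes of proteins that assemble with snoRNAs, 12 had a positive difference, with a median of 0.32, 7 lay above, 0 below, and 0 passed the edgeR test, beside the same shares of all genes. Nop10, a core protein of box H/ACA particles, had 124 in KO1 and 159 TMM-scaled CPM in KO3, against 67.9 in WT1 and 69.1 TMM-scaled CPM in WT2 and was the 1 gene of these 13 that DESeq2 called (DESeq2 adjusted p = 0.0193, edgeR adjusted p = 0.809). The abundant Npm1, a nucleolar chaperone gene, had 1472 in KO1 and 1678 TMM-scaled CPM in KO3, against 1251 in WT1 and 1262 TMM-scaled CPM in WT2. Ncl, the nucleolin gene, had 1282 in KO1 and 1538 TMM-scaled CPM in KO3, against 1358 in WT1 and 1079 TMM-scaled CPM in WT2, and its groups overlapped. Nhp2, another H/ACA protein gene, had 287 in KO1 and 485 TMM-scaled CPM in KO3, against 241 in WT1 and 178 TMM-scaled CPM in WT2. Cytosolic ribosomal protein genes had a median log2 difference of 0.12 over 77 genes, with 22 above and 1 below, against 17% and 18.7% of all genes, and 0 passed the edgeR test. Of 15 other long non-coding RNAs, 5 had a positive difference, with a median of -0.13, 0 lay above, 2 below and 0 passed the edgeR test, against the same 17% and 18.7%. H19, an imprinted RNA that restrains growth in the embryo, had 2.17 in KO1 and 1.13 TMM-scaled CPM in KO3, against 22 in WT1 and 26.1 TMM-scaled CPM in WT2, so both mice labelled Sirt6-/- were below both wild-type mice, and it was the 1 of the 15 that DESeq2 called (DESeq2 adjusted p = 4.5e-09, edgeR adjusted p = 0.809). The uncharacterised 2900097C17Rik was the other below, with a log2 difference of -0.14. Xist had 254 in KO1 and 125 TMM-scaled CPM in KO3, against 142 in WT1 and 410 TMM-scaled CPM in WT2. Tug1 had 259 in KO1 and 216 TMM-scaled CPM in KO3, against 240 in WT1 and 278 TMM-scaled CPM in WT2, and for both the groups overlapped, as for Firre (-0.01), Dleu2 (0.26) and 1700020I14Rik (0.02), given as log2 differences.

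Kcnq1ot1 lies within Kcnq1, the potassium channel gene on the opposite strand with which it shares 121 exon bases. Whether counting used strand is not stated, and Kcnq1 itself was assigned 1 count, in 1 cell. Of 14 genes of the Kcnq1 imprinted domain in the table, 10 passed the filter on low counts and 0 passed the edgeR test. Slc22a18, a transporter gene, was lower in the mice labelled Sirt6-/-, with 10.4 in KO1 and 3.74 TMM-scaled CPM in KO3, against 20.1 in WT1 and 22.8 TMM-scaled CPM in WT2 (log2 difference -1.60). Cdkn1c, a cyclin-dependent kinase inhibitor that Kcnq1ot1 silences in mice, was at 0 in both KO1 and KO3, against 1.04 in WT1 and 0.181 TMM-scaled CPM in WT2. Phlda2, a growth-restraining gene silenced in the same way, had 39.1 in KO1 and 74.6 TMM-scaled CPM in KO3, against 45.2 in WT1 and 20.0 TMM-scaled CPM in WT2, and its groups overlapped. Ascl2, a transcription factor gene that Kcnq1ot1 silences in placenta, had 1.6 in KO1 and 3.24 TMM-scaled CPM in KO3, against 1.26 in WT1 and 0.949 TMM-scaled CPM in WT2. Tssc4 had 46.4 in KO1 and 55.8 TMM-scaled CPM in KO3, against 28.2 in WT1 and 38.9 TMM-scaled CPM in WT2. Cd81, a membrane protein gene and the most abundant of the domain, had 804 in KO1 and 912 TMM-scaled CPM in KO3, against 715 in WT1 and 722 TMM-scaled CPM in WT2. Ascl2, Tssc4 and Cd81 were above in the mice labelled Sirt6-/-. Nap1l4 had 265 in KO1 and 331 TMM-scaled CPM in KO3, against 301 in WT1 and 283 TMM-scaled CPM in WT2, and Cars had 86.9 in KO1 and 132 TMM-scaled CPM in KO3, against 145 in WT1 and 77.3 TMM-scaled CPM in WT2. Of the 10 genes, 3 were above, 2 below and 5 overlapped, near the shares of all genes (17% above and 18.7% below).

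**Figure D3:**
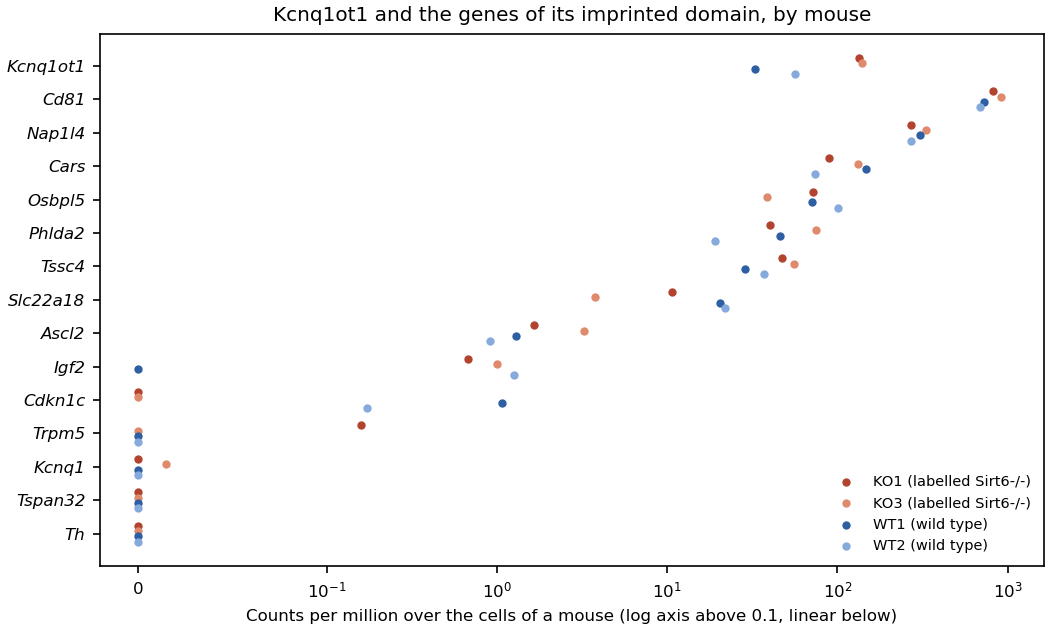
Kcnq1ot1 and 14 genes of the Kcnq1 imprinted domain, as CPM over the cells of each mouse, on an axis that is logarithmic above 0.1 and linear below. Points are the mice KO1 and KO3 (labelled Sirt6-/-) and WT1 and WT2 (wild type); Kcnq1ot1 at 134 and 139 CPM lies right of 32.8 and 56.4 CPM, and Slc22a18 shows the opposite order.

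Across the cells of 1 mouse, the RNAs were related to measures of the cell by Spearman's rho. The ranks of total counts and genes detected were removed (partial rho). For genes detected itself no rank was removed, and the genes were counted after thinning every cell to the same total. The cells of a mouse share their tumour, plate and depth, so rho is given as a description over 73 cells of KO1, 54 of KO3, 69 of WT1 and 88 of WT2. A score is the mean z-score of the list's genes that had a count in 20% or more of the cells of each mouse. Of 21 relations to genes detected, mitochondrial share and the glycolytic score, 15 had the same sign in all 4 mice.

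Gas5 was lower in cells with more genes detected, with rho of -0.44 in KO1, -0.26 in KO3, -0.37 in WT1 and -0.39 in WT2. Malat1 was negative in all 4 mice too, with a mean of -0.19, as was Snhg8, with a mean of -0.17. Kcnq1ot1 alone was higher in cells with more genes in all 4 mice, with rho of 0.43 in KO1, 0.13 in KO3, 0.25 in WT1 and 0.13 in WT2. The share of counts from the 13 mitochondrial coding genes went with Gas5, with partial rho of 0.40 in KO1, 0.36 in KO3, 0.30 in WT1 and 0.51 in WT2. It went with Malat1 at 0.43 in KO1, 0.25 in KO3, 0.17 in WT1 and 0.29 in WT2. Of the 7 RNAs, 6 had a positive partial rho to it in all 4 mice, all but Snhg1.

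Malat1 was lower in cells with more mRNA of glycolytic enzymes. Its partial rho to the score of 13 enzymes was -0.35 in KO1, -0.22 in KO3, -0.43 in WT1 and -0.30 in WT2, the most negative mean of the 7 RNAs. Gene by gene, 7 of 13 enzymes were negative in all 4 mice and 0 positive, against 14.8% negative and 10.5% positive of 8473 genes. Ldha, which turns pyruvate into lactate, was the gene most opposed to Malat1 of all 8473, with partial rho of -0.36 in KO1, -0.39 in KO3, -0.36 in WT1 and -0.27 in WT2. Pgam1, which interconverts phosphoglycerates, had -0.53 in KO1, -0.23 in KO3, -0.37 in WT1 and -0.14 in WT2. Pkm, the pyruvate kinase gene, had -0.27 in KO1, -0.13 in KO3, -0.34 in WT1 and -0.19 in WT2, and Aldoa, an aldolase gene, had 0.047 in KO1, -0.31 in KO3, -0.0025 in WT1 and -0.066 in WT2. The enzymes were not uniform: Hk2, a hexokinase gene, had 0.02 in KO1, 0.11 in KO3, -0.16 in WT1 and 0.14 in WT2. Neat1 had a partial rho to the glycolytic score of -0.13 in KO1, -0.00099 in KO3, -0.15 in WT1 and -0.14 in WT2, and Snhg12 had -0.32 in KO1, -0.088 in KO3, -0.20 in WT1 and -0.11 in WT2. For Snhg1 and Snhg8 the sign differed between mice.

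Malat1 and Neat1 went together. Their partial rho was 0.28 in KO1, 0.23 in KO3, 0.40 in WT1 and 0.41 in WT2, and among 8473 genes Malat1 stood at place 3 of those most like Neat1 and Neat1 at place 6 of those most like Malat1, ranked by the lowest rho of the 4 mice. Besides Malat1, the genes most like Neat1 were Gm47585 (0.24 to 0.38), Gm47603 (0.24 to 0.53), the transcription factor gene Jun (0.23 to 0.36) and Leng8 (0.22 to 0.31), each given as its range over the mice. Genes most like Malat1 were the mitochondrial ribosomal RNA mt-Rnr2 (0.26 to 0.38), Xist, the nuclear RNA that coats the inactive X chromosome (0.26 to 0.50), the ubiquitin gene Ubb (0.25 to 0.48), the mitochondrial oxidase subunit mt-Co1 (0.24 to 0.47) and the pseudogene Pisd-ps1 (0.24 to 0.36). The mitochondrial ribosomal RNAs took a median of 3.7% in KO1 and 2.41% in KO3, against 3.04% in WT1 and 3.63% in WT2 of a cell's counts. Most opposed to Malat1 after Ldha were the tRNA synthetase gene Nars (-0.39 to -0.27) and the translation factor gene Eif4g2 (-0.31 to -0.26). Of 6 other long non-coding RNAs found often enough to compare, Xist was the 1 with partial rho to Malat1 over 0.2 in every mouse. Tug1 had -0.03 in KO1, 0.0054 in KO3, -0.089 in WT1 and 0.10 in WT2.

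Neat1 was lower in cells with more mRNA of G2/M genes, which act in mitosis. Its partial rho to the score of 18 such genes was -0.26 in KO1, -0.31 in KO3, -0.35 in WT1 and -0.25 in WT2. Of these 18, 16 were negative in all 4 mice and 0 positive, with a median rho of -0.20, against 12.5% negative over all genes. Cdca8, a subunit of the chromosomal passenger complex, had -0.28 in KO1, -0.38 in KO3, -0.27 in WT1 and -0.34 in WT2 and was 1 of the 3 genes most opposed to Neat1. The others were Ran, the GTPase of nuclear transport and spindle assembly (-0.47 to -0.30), and Cdca3 (-0.37 to -0.25). Cdc20, an activator of the anaphase-promoting complex, had -0.40 in KO1, -0.27 in KO3, -0.33 in WT1 and -0.25 in WT2. The cyclin gene Ccnb1 had -0.38 in KO1, -0.20 in KO3, -0.24 in WT1 and -0.22 in WT2, and the topoisomerase gene Top2a had -0.16 in KO1, -0.056 in KO3, -0.029 in WT1 and -0.19 in WT2. Malat1 had -0.33 in KO1, 0.078 in KO3, -0.20 in WT1 and -0.29 in WT2 with the same score, so KO3 went against the other mice. With S phase genes, both had negative partial rho in all 4 mice, at -0.26 in KO1, -0.082 in KO3, -0.13 in WT1 and -0.36 in WT2 for Malat1 and -0.11 in KO1, -0.059 in KO3, -0.17 in WT1 and -0.32 in WT2 for Neat1.

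Immediate early genes went the other way. Neat1 had partial rho to the score of 17 such genes of 0.13 in KO1, 0.37 in KO3, 0.20 in WT1 and 0.40 in WT2, and 13 of the 17 were positive in all 4 mice and 0 negative, against 8.47% positive over all genes. Jun had 0.27 in KO1, 0.29 in KO3, 0.23 in WT1 and 0.36 in WT2. Fos, its partner in the AP-1 factor, had 0.08 in KO1, 0.27 in KO3, 0.26 in WT1 and 0.31 in WT2. Dusp1, a phosphatase gene, had 0.11 in KO1, 0.24 in KO3, 0.18 in WT1 and 0.34 in WT2. Malat1 was positive with these genes in 3 of 4 mice, at -0.028 in KO1, 0.23 in KO3, 0.19 in WT1 and 0.23 in WT2. The 15 genes of paraspeckle proteins, which assemble on Neat1 RNA, did not go with it: their score had partial rho of -0.17 in KO1, -0.12 in KO3, -0.16 in WT1 and -0.092 in WT2, and 1 of the 15 were negative and 0 positive in all 4 mice. Sfpq, needed for paraspeckles, had -0.0037 to 0.092, and Nono, its partner, -0.12 to 0.21, both spanning 0. Hnrnpk had -0.34 to 0.013 and Ewsr1 -0.20 to 0.031. The relation to the score was positive on average when log2 values replaced ranks.

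Gas5 went with ribosomal protein mRNA. Its partial rho to the score of 77 cytosolic ribosomal protein genes was 0.36 in KO1, 0.40 in KO3, 0.41 in WT1 and 0.46 in WT2, the highest mean of any RNA and list. Of the 77 genes, 74 were positive in all 4 mice and 0 negative, against 11.1% positive and 8.49% negative over all genes. Of the abundant ones, Rplp0 had 0.17 to 0.41 over the mice, Rpl4 -0.036 to 0.32 and Rps4x 0.24 to 0.46. Among the 5 genes most like Gas5 of 8473 were Rps18 (0.32 to 0.47) and 3 processed pseudogenes, Gm8430 (0.34 to 0.47), Rps27a-ps2 (0.33 to 0.50) and Gm9794 (0.32 to 0.42). Reads of pseudogenes can come from near-identical parent genes, so their values are uncertain. Most opposed were the actin cross-linker gene Actn4 (-0.57 to -0.27), the sterol synthesis gene Cyp51 (-0.35 to -0.20) and Arhgdia (-0.28 to -0.20).

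Snhg12 and Snhg8 also went with ribosomal protein genes. Their starts hold the pyrimidine run, as a listed start of Gas5 does, but its part in these relations was not tested. Snhg12 had partial rho to the ribosomal protein score of 0.19 in KO1, 0.46 in KO3, 0.23 in WT1 and 0.20 in WT2, with 68 of 77 genes positive in all 4 mice. Snhg8 had 0.30 in KO1, 0.16 in KO3, 0.38 in WT1 and 0.089 in WT2, with 49 of 77. Over all genes, 10.1% were positive in all 4 mice with Snhg12 and 8.88% with Snhg8. Genes most like Snhg12 were Rpsa (0.20 to 0.28), Fbxw9 (0.20 to 0.34), Rpl39 (0.19 to 0.38), Rplp1 (0.19 to 0.43) and Rps16 (0.18 to 0.34), of which all but Fbxw9 encode ribosomal proteins. Among the genes most like Snhg8 were the sorting nexin gene Snx1 (0.21 to 0.26) and the pseudogenes Gm15500 (0.21 to 0.30), Rps26-ps1 (0.20 to 0.34) and Gm8430 (0.20 to 0.41). Opposed to Snhg12 were Uba1, Ap3m1-ps and Tapbp, and opposed to Snhg8 were Hsdl1, Gm18541 and Rps6ka4, none below -0.27 in any mouse. Malat1, which lacks the run, also had a positive partial rho to the ribosomal protein score in all 4 mice, at 0.18 in KO1, 0.22 in KO3, 0.31 in WT1 and 0.068 in WT2, and Neat1 did not, at 0.089 in KO1, -0.13 in KO3, 0.11 in WT1 and -0.13 in WT2.

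Snhg1 went with other host genes in all 4 mice, and with ribosomal protein genes in 3. Its partial rho to the score of 9 other snoRNA host genes was 0.24 in KO1, 0.42 in KO3, 0.29 in WT1 and 0.16 in WT2, and 4 of the 9 were positive in all 4 mice one by one, against 9.6% of all genes. Zfas1 had 0.35 in KO1, 0.32 in KO3, 0.14 in WT1 and 0.27 in WT2 and Snhg5, 1 of the 5 genes most like Snhg1, had 0.20 in KO1, 0.17 in KO3, 0.25 in WT1 and 0.25 in WT2. With ribosomal protein genes it had 0.40 in KO1, 0.059 in KO3, 0.11 in WT1 and -0.0024 in WT2. The others most like it were Psmg3, a proteasome assembly factor gene (0.26 to 0.31), Gm47602 (0.17 to 0.27), C1qbp (0.16 to 0.27) and Ubtf, a transcription factor gene for ribosomal RNA (0.16 to 0.35). Most opposed were Cd47 (-0.29 to -0.27), Rai14 (-0.28 to -0.16) and Kcnn4 (-0.24 to -0.13). The score of nonsense-mediated decay factors had partial rho to Snhg1 of 0.16 in KO1, 0.38 in KO3, 0.21 in WT1 and 0.14 in WT2, but of its 14 genes 0 were positive in all 4 mice one by one, against 9.6% of all genes. Gas5 had 0.16 in KO1, 0.33 in KO3, 0.20 in WT1 and 0.25 in WT2 with the other host genes, and Snhg12 had 0.16 in KO1, 0.35 in KO3, 0.24 in WT1 and 0.33 in WT2. Among the 4 hosts themselves, Gas5 with Snhg12 had 0.34 in KO1, 0.23 in KO3, 0.05 in WT1 and 0.18 in WT2, Gas5 with Snhg1 had 0.10 in KO1, 0.12 in KO3, 0.29 in WT1 and 0.064 in WT2, and Snhg1 with Snhg8 had 0.34 in KO1, -0.11 in KO3, -0.10 in WT1 and 0.067 in WT2.

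Kcnq1ot1 had the weakest neighbours. No gene had a partial rho to it over 0.16 in all 4 mice, against 0.34 for the best gene of Gas5. The 5 most like it were the snoRNA-binding protein gene Nop56 (0.16 to 0.27), Pxk, Nbdy, Fubp1 and Hnrnpa3, and the 3 most opposed were Lims1 (-0.26 to -0.16), Ergic3 and Mpp1. At such sizes in sparse counts these are no finding. Of 6 genes of its own imprinted domain found often enough to compare, 0 were positive and 0 negative in all 4 mice. Over all genes 6.35% were positive and 5.88% negative, so 6 genes are too few to set the domain apart. Phlda2 had -0.079 in KO1, -0.19 in KO3, 0.12 in WT1 and 0.01 in WT2.

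**Figure D4:**
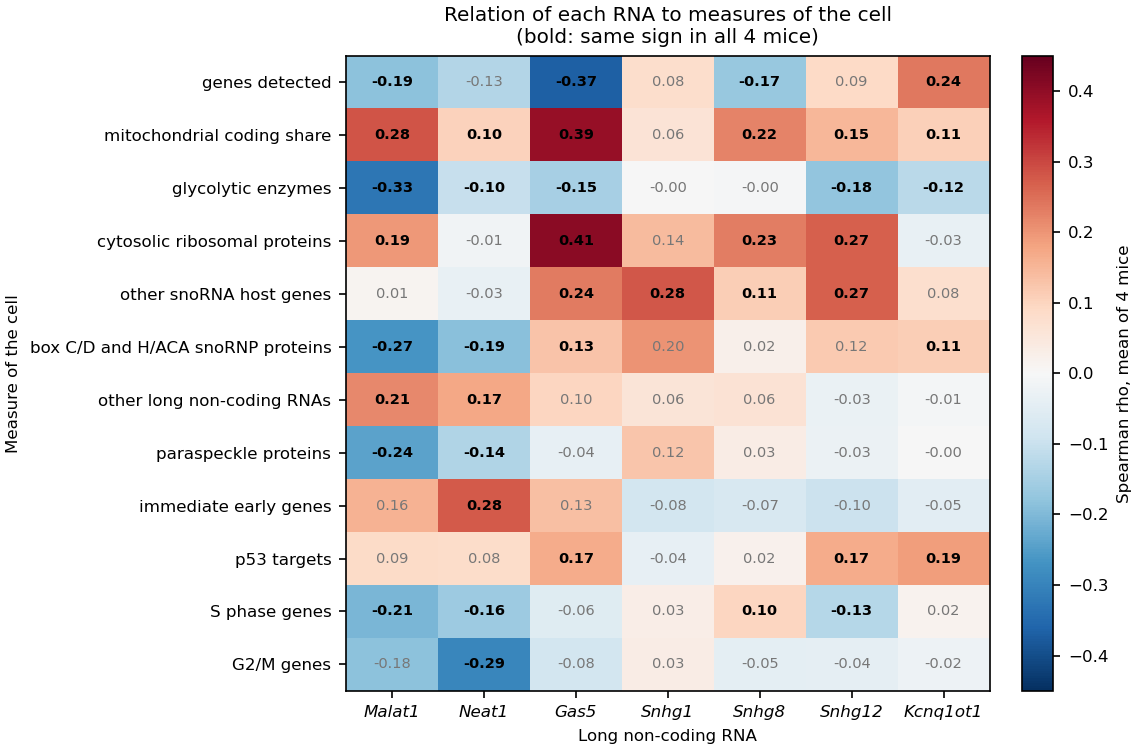
Spearman rho of each RNA (columns) to 12 measures of the cell (rows), as the mean over KO1, KO3, WT1 and WT2. Total counts and genes detected were removed in all rows but that of genes detected, where thinned cells were used and nothing was removed. Bold values had the same sign in all 4 mice; the strongest are Gas5 with ribosomal proteins (0.41), Gas5 with the mitochondrial coding share (0.39) and Gas5 with genes detected (-0.37).

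**Figure D5:**
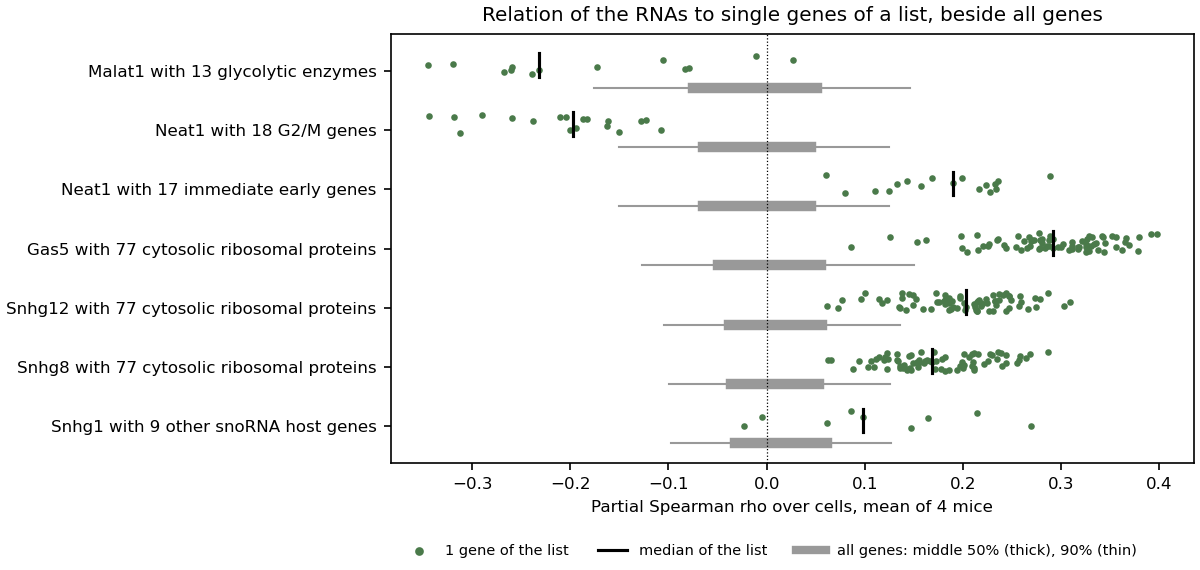
Partial Spearman rho, mean of 4 mice, of Malat1, Neat1, Gas5, Snhg12, Snhg8 and Snhg1 to each gene of a list (points, with black median lines), beside the middle 50% and 90% of all 8473 genes (grey bars). All 77 ribosomal protein genes lie right of 0 with Gas5, and all 18 G2/M genes lie left of 0 with Neat1.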

How the data were processed

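Poly(A) RNA of 284 sorted single cells was sequenced with a variant of Smart-seq2, per the labels' protocols. The authors deposited expected counts, for each gene in each cell, made with STAR and RSEM on mm10 (GRCm38), per the submitters' processing notes; no source used here states the strand setting or filters. Without molecular identifiers a count is a read, and intervals cover counting error only. Genes were matched to GENCODE M21 (54156 of 54247 IDs). Counts were summed over the cells of a mouse, rounded and fitted with edgeR 4.0.16 (TMM, filterByExpr, quasi-likelihood test, two-sided, Benjamini-Hochberg over 16567 genes, threshold 0.05), with 2 residual degrees of freedom; DESeq2 1.42.0 and limma-voom (limma 3.58.1) were alternatives, in R 4.3.3. Levels are CPM of the sums, TMM-scaled where so named. Above, below and overlapping compare both mice of each genotype. Across cells, ranks of log2(CPM + 1), total counts and genes detected gave the partial rho within each mouse; a list score is the mean z-score of its genes with a count in 20% or more of the cells of each mouse (8473 besides each RNA). Shares carry exact (Clopper-Pearson) 95% intervals. For each RNA the 5 of these genes with the highest lowest rho over the mice and the 3 with the lowest highest rho were named; of the host gene and long non-coding RNA lists, members found in 20% or more of the cells of each mouse; of other lists, up to the 3 most abundant. Pgam1, Hk2, Sfpq, Phlda2, Slc22a18, Cdkn1c, Ascl2, Tssc4, Nop10 and H19 were named after their values were seen. A few genes that the rule names are not reported here. The fits were checked on simulated data. Members and lists were chosen with earlier results of these data known. Sequences are from RefSeq promoter windows (GRCm38.p6) and GENCODE transcripts. Nothing says whether mice of a genotype were littermates.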

Additional observations from a re-analysis of the deposited data

Results flagged for a closer look

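In 5 relations, both mice labelled Sirt6-/- had a rho of one sign and both wild-type mice the other; the difference between the genotypes was not tested in any of them, and 182 relations of this kind were looked at. For Snhg8 with heat shock chaperones the difference in mean rho, labelled Sirt6-/- minus wild type, was -0.28, with rho of -0.19 in KO1 and -0.19 in KO3, against 0.087 in WT1 and 0.10 in WT2. For Kcnq1ot1 with the sorted cell markers it was 0.28, with rho of 0.11 in KO1 and 0.18 in KO3, against -0.083 in WT1 and -0.19 in WT2. For Kcnq1ot1 with S phase genes it was 0.27, with rho of 0.11 in KO1 and 0.20 in KO3, against -0.073 in WT1 and -0.17 in WT2. For Kcnq1ot1 with other snoRNA host genes it was -0.26, with rho of -0.084 in KO1 and -0.026 in KO3, against 0.29 in WT1 and 0.12 in WT2. For Kcnq1ot1 with paraspeckle proteins it was 0.20, with rho of 0.077 in KO1 and 0.12 in KO3, against -0.15 in WT1 and -0.047 in WT2.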

How the results depend on the processing

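The count of genes called between the genotypes was 0 with edgeR, 149 with DESeq2 and 1 with a minimum of 10 CPM in 2 mice; the cause was not tested. With each mouse left out it was 0 (0 to 0), where 1 genotype has a single mouse assumed to vary like the others, so this count says nothing of stability. The log2 difference of Neat1 was 0.026 without WT2. That of Gas5 was 0.031 without KO3 and 0.52 without WT2, over a range of -0.54 to 0.52. Snhg8 gave -0.049 without WT1 (range -0.049 to 0.32) and Snhg12 -0.23 without KO1 (range -0.23 to 0.40). The ranges were -1.002 to 0.026 for Neat1 and -1.81 to -0.17 for Malat1. Leaving the 7 RNAs out of the library totals did not move these values. It could not have done so, since TMM scaling takes up such a change in the totals. From mean log2 values per cell Kcnq1ot1 gave 2.67 and Snhg1 0.55. Of 72 relations of one sign in all 4 mice, 60 kept it after thinning, 57 with Pearson's r, 57 with no covariate removed and 71 on the main plates. The mean turned to 0.0163 for Snhg8 with genes detected and 0.0696 for Neat1 with paraspeckle proteins with Pearson's r. With no covariate removed it turned to -0.096 for Gas5 with snoRNP proteins, 0.0357 for Kcnq1ot1 with glycolytic enzymes and -0.0109 for Snhg8 with S phase genes. Relations to other lists and between the RNAs of one sign numbered 57 over 4 mice and 65 to 87 over 3, where fewer mice have to share a sign. Leaving out mice for the shares of cells, and the totals and plates for the calls, were chosen after seeing the data. No paired analysis was possible because the groups share a single mouse number.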

Other observations

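Of 47 nuclear oxidative phosphorylation genes, 44 had a positive log2 difference, labelled Sirt6-/- minus wild type, with a median of 0.30, 30 lay above and 1 below, against 17% and 18.7% of all genes, and 0 passed the edgeR test. Across cells, their score had partial rho to Neat1 of -0.12 in KO1, -0.43 in KO3, -0.13 in WT1 and -0.22 in WT2, and 22 of the 47 genes were negative and 1 positive in all 4 mice, against 12.5% negative and 8.47% positive of all genes. With Gas5 the score had 0.17 in KO1, 0.11 in KO3, 0.23 in WT1 and 0.14 in WT2. The score of 12 snoRNP protein genes had partial rho to Malat1 of -0.36 in KO1, -0.25 in KO3, -0.43 in WT1 and -0.022 in WT2, and 6 of the 12 were negative in all 4 mice, against 14.8% of all genes. With Neat1 it had -0.30 in KO1, -0.063 in KO3, -0.17 in WT1 and -0.21 in WT2, and 4 of the 12 were negative. The score of 12 p53 targets had partial rho to Gas5 of 0.20 in KO1, 0.19 in KO3, 0.13 in WT1 and 0.15 in WT2, and 4 of the 12 were positive in all 4 mice, against 11.1% of all genes. With no covariate removed, the mean rho of Gas5 to this score was 0.034. The relation was not particular to Gas5. Snhg12 and Kcnq1ot1 were also positive with the score in all 4 mice, with means of 0.17 and 0.19, against 0.17 for Gas5. These are values over cells of 4 mice, with no test.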
